A study of Mus musculus with 10 samples.

Results

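The genes examined were 7 receptor genes for the inhibitory transmitter GABA, found by their gene symbols among the 54838 gene identifiers of the count tables. They are the GABA-A receptor alpha subunit genes Gabra2, Gabra3, Gabra4, Gabra5 and Gabra6 and the GABA-B receptor genes Gabbr1 and Gabbr2. The set was proposed with earlier results of these data known. All 7 symbols matched 1 identifier each, and 6 of the 7 passed the filter on low values (above 1 CPM, the count scaled to library size, in at least 2 libraries). Gabra6 did not. Other alpha subunit genes were not analysed here.

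The libraries were made by translating ribosome affinity purification (TRAP), in which ribosomes tagged with EGFP-L10a are pulled down with the RNA they carry. All mice were males of the C57BL/6 strain, about 10 weeks old, of the genotype MC-TRAP (Drd2-Cre;Eef1a1LSL.eGFPL10a/+), in which Cre from the Drd2 gene switches on the tag. The hippocampus was divided along its length into a dorsal part and a longer ventral part, the ventral subiculum was removed, and the tissue of 5 mice was pooled for each of 5 dorsal and 5 ventral libraries. A replicate is therefore a pool. Hippocampi of 25 mice gave both parts, so dorsal and ventral libraries share their mice, but which dorsal pool matches which ventral one is not given in the sources used here, and no untagged or input control library was used here. Mossy cells (MCs), the glutamatergic neurons of the dentate hilus, are the intended source, but by the study's own histology this Cre line also tags some GABAergic interneurons.

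Counts on genes ranged from 11138676 to 20594364 per library. The label check gene Calb2 (calretinin, known in ventral MCs) measured 65.02 ± 9.31 CPM dorsally and 615 ± 94.4 CPM ventrally, and Cyp26b1, a retinoic acid degrading enzyme, measured 60.4 ± 7.44 CPM dorsally and 28.8 ± 5.29 CPM ventrally. Of the defining markers, Drd2 itself stood at 28.1 ± 3.96 CPM dorsally and 20.7 ± 4.35 CPM ventrally. It does not mark MCs alone, as the Cre line also tags some interneurons. Among interneuron markers Gad2, a GABA synthesizing enzyme, stood at 2847 ± 453 CPM dorsally and 3169 ± 406 CPM ventrally. Gad1 stood lower, at 257 ± 43.7 and 355 ± 35.4 CPM, as did Slc32a1, at 51.4 ± 4.90 and 54.3 ± 8.90 CPM. These levels do not give the proportions of the cell types. The share of read pairs outside annotated genes was 21.8 to 33.9% in dorsal and 11.6 to 19.3% in ventral libraries, with no overlap. It was taken among pairs counted on genes, outside genes or as ambiguous. In bulk samples of this kind, fewer cells of a type and less RNA per cell cannot be told apart.

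GABA-A receptors are pentameric chloride channels, built typically from alpha, beta and gamma or delta, and the alpha subunit shapes the affinity for GABA, the place of the receptor at or away from the synapse, and its response to benzodiazepines. Receptors with alpha2 or alpha3 are mostly synaptic, those with alpha5 are abundant in hippocampus and largely extrasynaptic, alpha4 often pairs with delta in tonic inhibition, and alpha6 is typical of cerebellar granule cells. GABA-B receptors are G protein-coupled and work as an obligate pair, in which Gabbr1 encodes the subunit that binds GABA and Gabbr2 the subunit that couples to the G protein and brings the pair to the cell surface.

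The coding sequences below show the feature by which the alpha subunits are classed, a codon for histidine in subunits that bind classical benzodiazepines and for arginine in those that do not. Each stretch comes from the longest annotated coding transcript of GENCODE M21 on GRCm38, is written 5′ to 3′ on the coding strand, lies within 1 coding exon, and has that codon in capitals.
Gabra2: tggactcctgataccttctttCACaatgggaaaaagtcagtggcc
Gabra3: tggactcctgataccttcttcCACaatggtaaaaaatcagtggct
Gabra5: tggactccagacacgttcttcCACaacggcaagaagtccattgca
Gabra4: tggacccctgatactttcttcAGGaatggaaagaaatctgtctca
Gabra6: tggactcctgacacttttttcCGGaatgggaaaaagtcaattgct
These lie at chr5:71014484-71014528 in exon 5 (Gabra2), chrX:72501147-72501191 in exon 5 (Gabra3), chr7:57488870-57488914 in exon 5 (Gabra5), chr5:71641131-71641175 in exon 4 (Gabra4) and chr11:42317626-42317670 in exon 4 (Gabra6), all on the minus strand. Gabra2, Gabra3 and Gabra5 carry a CAC histidine codon, whereas Gabra4 carries AGG and Gabra6 CGG, both for arginine. For the GABA-B pair the matching feature is the signal that holds an unpaired Gabbr1 subunit in the endoplasmic reticulum, whose codons are in capitals.
Gabbr1: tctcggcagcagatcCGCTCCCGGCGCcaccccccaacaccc
This stretch lies at chr17:37072892-37072933 on the plus strand, in the last exon of the transcript, exon 23.

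Of the 6 receptor genes tested, 5 were higher in dorsal and 1, Gabra3, was higher in ventral libraries (edgeR quasi-likelihood test, adjusted p below 0.05 over 16806 genes). Over all tested genes 33.6% passed, 19.0% in the dorsal direction and 14.6% in the ventral direction. The stricter call of enrichment, which also asks for a 1.5-fold ratio of mean CPM + 1, was met by Gabra2 and Gabra5 in dorsal and by Gabra3 in ventral libraries, against 15.7% and 9.85% of all tested genes. Libraries of the groups did not overlap for 5 of the 6 genes, Gabra4 being the exception, against 18.2% of all tested genes (9.79% with dorsal above and 8.37% with ventral above). The median log2 fold change (dorsal minus ventral) was 0.49 for the 6 genes and -0.00437 for all tested genes.

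**Figure D1:**
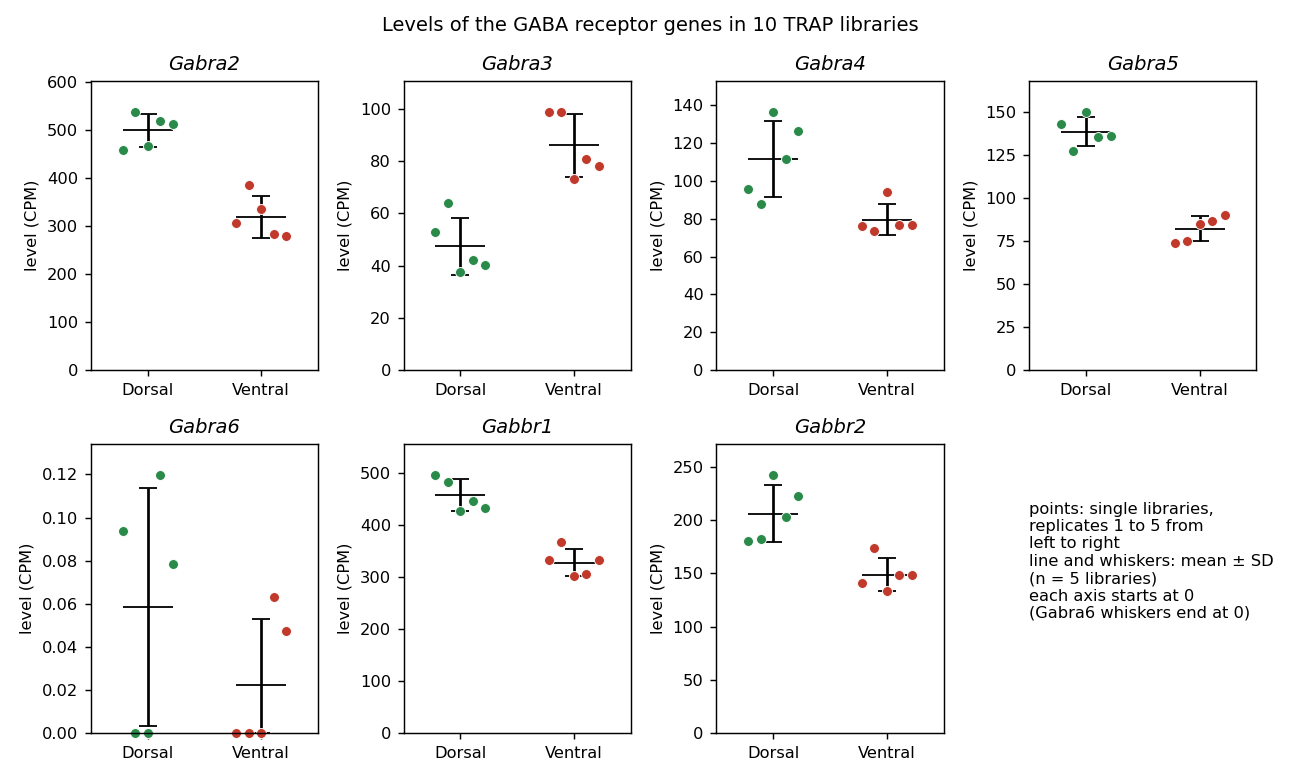
Level in CPM (y axis) of each of the 7 receptor genes in the 5 dorsal (green) and 5 ventral (red) libraries, with the mean and SD of each group. Dorsal libraries lie above ventral ones for Gabra2, Gabra5, Gabbr1 and Gabbr2, the order is turned for Gabra3, Gabra4 overlaps, and Gabra6 stays below 0.13 CPM.

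Gabra2, which encodes the alpha2 subunit of mainly synaptic receptors, lies at chr5:70957597-71095849 (ENSMUSG00000000560). Gabra2 stood at 458, 537, 467, 518 and 513 CPM across dorsal replicates 1 to 5 and at 307, 386, 334, 284 and 280.1 CPM across ventral replicates 1 to 5. Every dorsal library was above every ventral one. The means were 499 ± 34.2 and 318 ± 43.6 CPM (SD, n = 5 each), and dorsal libraries were 1.57-fold higher (log2 fold change 0.65, SE 0.103, 95% interval 0.43 to 0.87, edgeR adjusted p = 0.000524). This is the 1 gene of the 6 whose call ended when the trend of expression with GC content and exonic length was removed from each library, at 0.18 (adjusted p = 0.149). The longest Gabra2 transcript is 38.4% GC, and 5.11% of tested genes have a lower GC content.

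Gabra5, which encodes the alpha5 subunit, lies at chr7:57407672-57510059 (ENSMUSG00000055078). Gabra5 stood at 143, 127, 149.9, 136 and 136 CPM across dorsal replicates 1 to 5 and at 74.1, 74.96, 85.1, 86.3 and 90.2 CPM across ventral replicates 1 to 5. The groups stood well apart, with the lowest dorsal library above the highest ventral one. The means were 138 ± 8.47 and 82.1 ± 7.21 CPM, a 1.68-fold difference (log2 fold change 0.75, SE 0.100, 95% interval 0.54 to 0.97, edgeR adjusted p = 0.000184). It had the largest dorsal fold change among the 6 genes, and it kept that size after the GC and length correction, at 0.72 (adjusted p = 0.000114). A noncoding gene on the other strand shares 4.98% of its exonic length, and whether the counting used strand is not stated.

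Gabra4, which encodes the alpha4 subunit, lies at chr5:71569749-71658308 (ENSMUSG00000029211). Gabra4 stood at 95.6, 87.8, 136, 112 and 126 CPM across dorsal replicates 1 to 5 and at 76.1, 73.4, 93.9, 76.7 and 76.9 CPM across ventral replicates 1 to 5. Dorsal replicates 1 and 2 were low for their group, and dorsal replicate 2 fell below the highest ventral library, replicate 3. The means were 112 ± 20.3 and 79.4 ± 8.24 CPM, and the difference passed the test without reaching the 1.5-fold ratio (log2 fold change 0.49, SE 0.133, 95% interval 0.21 to 0.78, edgeR adjusted p = 0.0124).

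Gabra3, which encodes the alpha3 subunit, lies on the X chromosome at chrX:72432681-72656848 (ENSMUSG00000031343). Gabra3 stood at 52.97, 63.7, 37.4, 42.3 and 40.3 CPM across dorsal replicates 1 to 5 and at 98.7, 98.5, 73.3, 80.9 and 78.2 CPM across ventral replicates 1 to 5. All ventral libraries were above all dorsal ones, and ventral replicates 1 and 2 as well as dorsal replicates 1 and 2 were the highest of their groups. The means were 47.3 ± 10.9 and 85.9 ± 11.9 CPM, so that ventral libraries were 1.81-fold higher (log2 fold change -0.86, SE 0.157, 95% interval -1.19 to -0.52, edgeR adjusted p = 0.00133). After the GC and length correction the difference was -0.96 (adjusted p = 0.000445).

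Gabra6, at chr11:42306437-42321072 (ENSMUSG00000020428), had 1, 0, 0, 2 and 1 counts in dorsal replicates 1 to 5 and 0, 0, 0, 1 and 1 counts in ventral replicates 1 to 5. No library exceeded the floor of 3 counts, which corresponds to 0.141 to 0.282 CPM here, and no fold change is given. A list of 5 cerebellar granule cell markers without Gabra6 had a summed level of 561 to 656 CPM dorsally and 249.8 to 399 CPM ventrally. Most of the counts in that sum came from Etv1 and Zic1. Of the 4 markers tested Zic1 was higher in dorsal and Etv1 in ventral libraries. Cbln1 was low, at 3.93 ± 2.30 CPM dorsally and 5.68 ± 2.37 CPM ventrally. Cbln3, which was not tested, stood at 0.553 ± 0.781 CPM dorsally and 0.0439 ± 0.0431 CPM ventrally.

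The GABA-B gene Gabbr1 lies at chr17:37045966-37075067 (ENSMUSG00000024462). Gabbr1 stood at 497, 483, 428, 446 and 434 CPM across dorsal replicates 1 to 5 and at 332, 367, 302, 306 and 333 CPM across ventral replicates 1 to 5. No ventral library reached the lowest dorsal one. The means were 458 ± 30.9 and 328 ± 26.1 CPM, a 1.40-fold difference (log2 fold change 0.48, SE 0.0886, 95% interval 0.29 to 0.67, edgeR adjusted p = 0.00142).

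Its partner Gabbr2 lies at chr4:46662305-46991873 (ENSMUSG00000039809). Gabbr2 stood at 180.3, 182, 243, 203 and 223 CPM across dorsal replicates 1 to 5 and at 141, 174, 134, 148 and 148 CPM across ventral replicates 1 to 5. The gap between the groups was narrow, the highest ventral library, replicate 2, standing just under the lowest dorsal one, replicate 1. The means were 206 ± 26.8 and 149 ± 15.1 CPM, a 1.39-fold difference (log2 fold change 0.47, SE 0.112, 95% interval 0.23 to 0.71, edgeR adjusted p = 0.00612). Neither GABA-B gene reached the 1.5-fold ratio as deposited, and the GC and length correction raised the log2 fold changes to 0.65 (adjusted p = 5.26e-05) for Gabbr1 and 0.74 (adjusted p = 9.81e-05) for Gabbr2.

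The share of read pairs outside genes separated the groups as completely as the labels did. With that share as a covariate, Gabbr1 was the only one of the 6 genes that still passed, at 0.65 (adjusted p = 0.0311), while Gabra2 was at 0.61 (adjusted p = 0.0830), Gabra5 at 0.66 (adjusted p = 0.0524), Gabra3 at -0.56 (adjusted p = 0.301), Gabbr2 at 0.30 (adjusted p = 0.441) and Gabra4 at 0.11 (adjusted p = 0.817). Each kept its direction, and the share and the group cannot be told apart in this design.

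**Figure D2:**
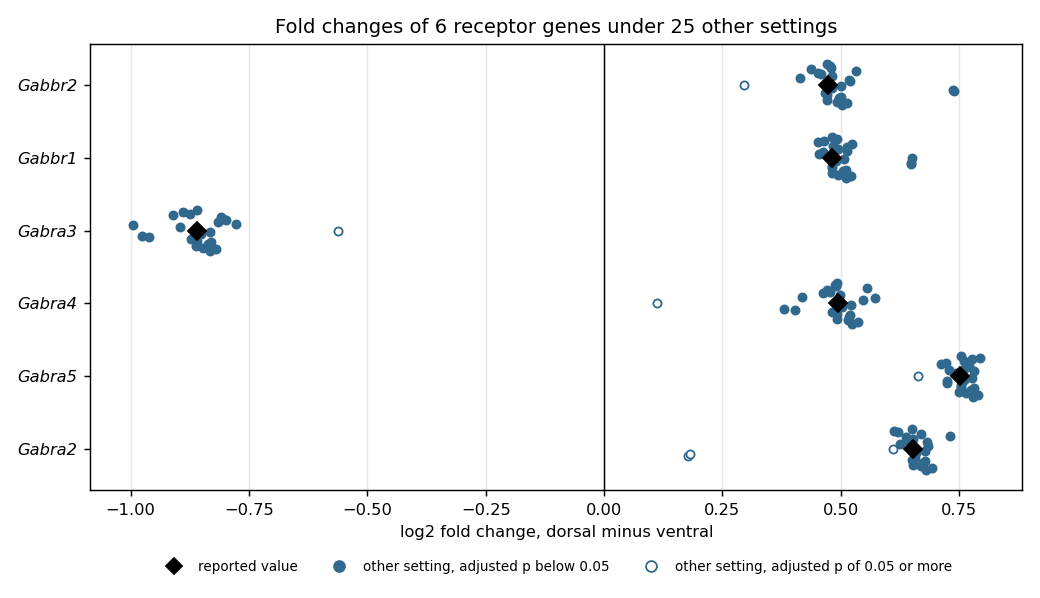
Log2 fold change, dorsal minus ventral (x axis), of the 6 tested receptor genes as reported (diamonds) and under 25 other settings (circles, filled where the adjusted p was below 0.05). No circle crosses 0, and the open circles are the covariate for reads outside genes (all genes except Gabbr1) and, for Gabra2, also both fits with the GC and length correction.

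Levels of different genes were compared per kb of exonic length (CPM per kb). In dorsal libraries the order was Gabra2 (65.3 ± 4.47), Gabbr1 (58.96 ± 3.97), Gabra5 (46.5 ± 2.85), Gabbr2 (30.9 ± 4.003), Gabra4 (18.3 ± 3.33) and Gabra3 (12.1 ± 2.78), with Gabra6 last. Library ranges overlapped between Gabra2 and Gabbr1 and between Gabra4 and Gabra3, and not between the other neighbours. In ventral libraries the order was Gabbr1 (42.3 ± 3.36), Gabra2 (41.6 ± 5.71), Gabra5 (27.6 ± 2.43), Gabbr2 (22.3 ± 2.26), Gabra3 (21.9 ± 3.03) and Gabra4 (13.1 ± 1.35), again with Gabra6 last. Here Gabra3 stood above Gabra4 in 5 of 5 libraries without overlap, whereas in dorsal libraries Gabra4 stood above Gabra3 in 4 of 5. The ventral neighbours Gabbr1 and Gabra2, Gabra5 and Gabbr2, and Gabbr2 and Gabra3 overlapped. The order depended on the length chosen. Per kb of coding length Gabra2 came first in both groups, at 368 ± 25.3 against 136 ± 9.17 for Gabbr1 in dorsal and 235 ± 32.2 against 97.5 ± 7.76 in ventral libraries, without overlap. Per kb of the longest transcript Gabbr1 came first in both groups, and its range overlapped that of Gabra2. The mean of Gabra3 was above that of Gabra4 in ventral and below it in dorsal libraries on both lengths, with ventral ranges that overlapped.

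The make-up of the alpha subunits was then compared within each library, as the share of each gene in the summed CPM per kb of these 5 alpha genes, which does not depend on library scaling. Gabra3 made up 9.83, 11.3, 6.64, 7.55 and 7.14% of the sum in dorsal replicates 1 to 5 and 24.5, 22.2, 17.5, 20.7 and 20.01% in ventral replicates 1 to 5. The lowest ventral share exceeded the highest dorsal one. The means were 8.49 ± 1.99% against 21.002 ± 2.58%, a difference of -12.5 percentage points (two-sided exact permutation p = 0.00794, adjusted 0.0397). The exact p of 0.00794 is the smallest that 5 against 5 libraries can give, and 5 tests were adjusted together.

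Gabra2 made up 43.7, 48.9, 42.6, 47.5 and 46.6% of the sum in dorsal replicates 1 to 5 and 39.1, 44.7, 41.1, 37.3 and 36.8% in ventral replicates 1 to 5. It was the largest share in every library, and the groups overlapped, ventral replicate 2 lying within the dorsal range. The means were 45.9 ± 2.64% against 39.8 ± 3.22%, a difference of 6.05 percentage points (two-sided exact permutation p = 0.0238, adjusted 0.0397). Gabra5 made up 35.03, 29.8, 35.1, 31.98 and 31.8% of the sum in dorsal replicates 1 to 5 and 24.2, 22.3, 26.9, 29.2 and 30.5% in ventral replicates 1 to 5. This was the next largest share in 9 of 10 libraries, ventral replicate 1 being the exception, where Gabra3 stood slightly above it. This rank held in all 10 libraries on the longest transcript, in 8 on coding length and in 7 on plain counts, where Gabra3 took it in ventral replicates 1 and 2 and Gabra4 in ventral replicate 3. The means were 32.7 ± 2.29% against 26.6 ± 3.37%, a difference of 6.13 percentage points (two-sided exact permutation p = 0.0159, adjusted 0.0397). On coding length the Gabra5 difference was 2.62 percentage points (adjusted p = 0.106) and on plain counts 2.79 (adjusted p = 0.106), so its size depended on the length used. The Gabra5 means themselves were 17.8 and 15.1% on coding length and 17.4 and 14.6% on plain counts. With libraries paired by number, an exact sign-flip test of 5 pairs cannot go below p = 0.0625, so none of these share calls could be kept. The 3 differences are not independent, as a rise in 1 share lowers the others. All 3 shares rested near the limit of 5 libraries a group. Leaving out 1 library raised the adjusted p to at most 0.0794 for Gabra3 with any but dorsal 2, ventral 2 or ventral 5. The same held for Gabra2 with any but ventral 2, and for Gabra5 with any but dorsal 2 or ventral 5. Gabra3 kept an exact permutation p of 0.0159 each time, the smallest possible with 1 library left out.

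Gabra4 made up 11.4, 10.04, 15.6, 12.9 and 14.4% of the sum in dorsal replicates 1 to 5 and 12.2, 10.7, 14.5, 12.7 and 12.7% in ventral replicates 1 to 5. The ranges overlapped, with means of 12.9 ± 2.23% against 12.5 ± 1.36%, a difference of 0.331 percentage points (two-sided exact permutation p = 0.794, adjusted 0.913). The Gabra4 level passed the test above while no difference in its share was detected. Gabra6 made up at most 0.0338% of the sum in any library, and in the 5 libraries without a Gabra6 count, 0 of 6959 to 12598 alpha counts allows a share of up to 0.0238 to 0.0431% of counts. Counting error on the plain count shares of Gabra2 to Gabra5 had Wilson 95% half-widths of 0.376 to 1.16 percentage points, which cover counting error only.

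**Figure D3:**
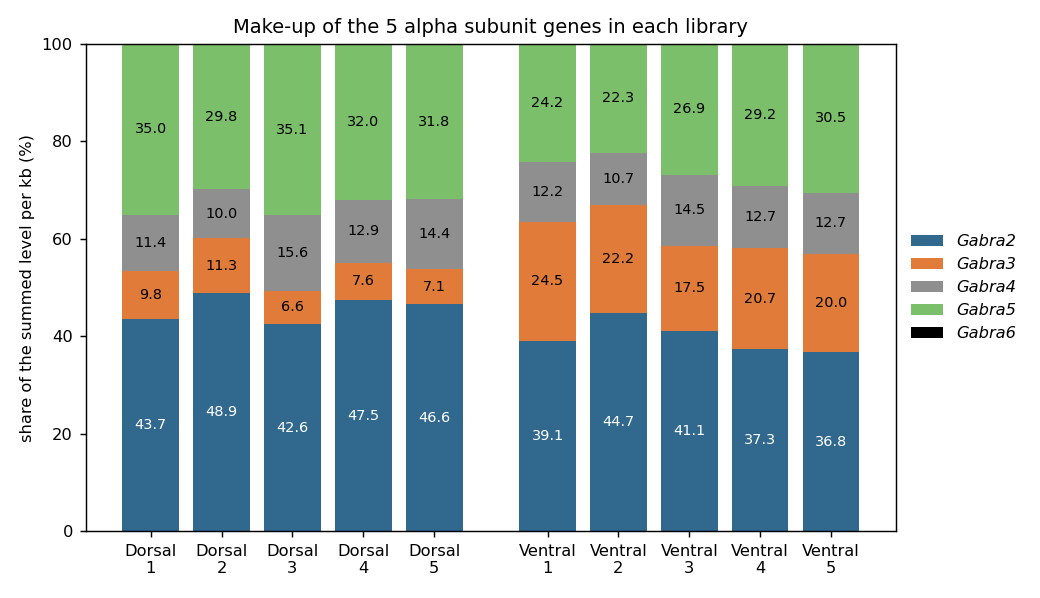
Share in percent (y axis) of each alpha subunit gene in the summed level per kb of Gabra2 to Gabra6, as 1 stacked bar for each of 5 dorsal and 5 ventral libraries. The Gabra3 segment is between 6.64 and 11.3% in dorsal and between 17.5 and 24.5% in ventral libraries, and Gabra6 is too small to see.

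Since Gabra2 and Gabra3 moved in opposite directions, their ratio per kb was also read in each library, as a description whose size depends on the length used. It was 4.44, 4.33, 6.42, 6.29 and 6.53 in dorsal replicates 1 to 5 and 1.60, 2.01, 2.34, 1.80 and 1.84 in ventral replicates 1 to 5. The summed level of the 5 alpha genes was 142 ± 2.80 CPM per kb in dorsal and 104 ± 5.63 CPM per kb in ventral libraries. Among dorsal libraries this sum spread less than its parts, with an SD of 1.97% of the mean, against 6.12% for Gabra5 and 23.01% for Gabra3.

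For the GABA-B pair the question was whether the balance of the subunits differed. Per kb, the Gabbr2 level was 42.1, 43.8, 65.9, 52.96 and 59.6% of the Gabbr1 level in dorsal replicates 1 to 5 and 49.2, 54.99, 51.3, 56.3 and 51.7% in ventral replicates 1 to 5. Gabbr2 was below Gabbr1 in all 10 libraries, and the dorsal libraries enclosed the whole ventral range. The mean log2 ratio was -0.941 ± 0.278 in dorsal and -0.926 ± 0.0786 in ventral libraries (difference -0.0155, two-sided exact permutation p = 0.913, adjusted 0.913). No difference in the ratio was detected with 5 libraries a group, and its sign turned without dorsal replicate 1 or 2 or ventral replicate 2 or 4, reaching 0.0612 at most. The summed GABA-B level was 89.8 ± 1.46 CPM per kb in dorsal and 64.5 ± 5.41 CPM per kb in ventral libraries.

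Alpha subunits need beta and gamma or delta partners, and 8 of the 12 other GABA-A subunit genes reported here passed the filter. Of these, 3 were higher in dorsal libraries, 1 was higher in ventral libraries and 4 did not pass. The median log2 fold change was 0.36 beside -0.00437 over all tested genes, of which 19.0% were higher in dorsal and 14.6% in ventral libraries. Gabrb1, a beta subunit, measured 305 ± 17.5 CPM dorsally and 175 ± 18.1 CPM ventrally (log2 fold change 0.80, SE 0.0959, adjusted p = 8.23e-05). Gabrg3, a gamma subunit, measured 48.8 ± 3.16 CPM dorsally and 21.97 ± 5.85 CPM ventrally (log2 fold change 1.13, SE 0.165, adjusted p = 0.000315). Gabrg1 measured 44.1 ± 7.01 CPM dorsally and 18.4 ± 10.8 CPM ventrally (log2 fold change 1.28, SE 0.283, adjusted p = 0.00424), and like Gabra2 it did not pass after the GC and length correction, at 0.33 (adjusted p = 0.367). Gabrd, the delta subunit of extrasynaptic receptors, was low, at 3.52 ± 0.575 CPM dorsally and 6.66 ± 3.15 CPM ventrally (log2 fold change -0.99, SE 0.349, adjusted p = 0.0420), and its call was lost under 17 of 25 other settings, among them the replicate block (adjusted p = 0.0533) and without dorsal replicates 1, 2, 3, 4 or 5 or ventral replicates 1, 4 or 5 (adjusted p up to 0.111).

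Many GABA-A subunit genes stand in chromosomal clusters, and the same calls as above are given here by cluster. Beside them stand 19.0% of all tested genes higher in dorsal and 14.6% higher in ventral libraries. On chromosome 5, Gabrg1, Gabra2, Gabra4 and Gabrb1 lie within 1.40 Mb, and 4 of 4 were higher in dorsal libraries. On chromosome 7, Gabrg3 and Gabra5 lie within 0.794 Mb, and 2 of 2 were higher in dorsal libraries. On chromosome 11, where Gabra6 lies, 0 of the 2 genes tested passed in edgeR, by its likelihood-ratio test or in DESeq2, and 0 had an unadjusted p under 0.05. On the X chromosome Gabra3 was higher in ventral libraries and the other gene tested did not pass. Genes of a cluster are neighbours and not independent, Gabra4 and Gabrb1 share 46 bases of exons on opposite strands, and with the GC and length correction 2 of the 4 genes on chromosome 5, Gabra4 and Gabrb1, still passed.

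**Figure D4:**
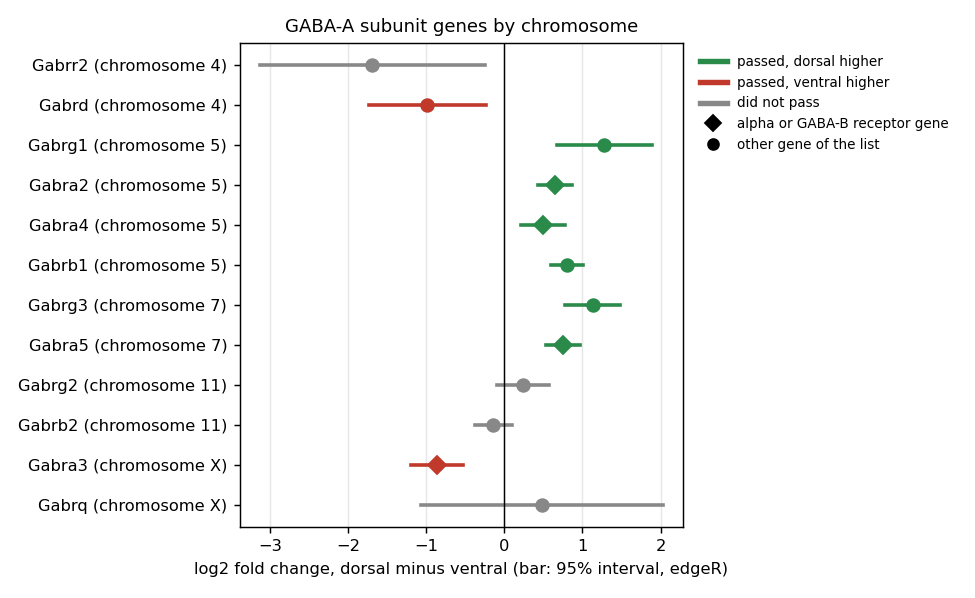
Log2 fold change, dorsal minus ventral, with 95% interval (x axis) of the 12 tested GABA-A subunit genes shown, grouped by chromosome, with diamonds for the alpha genes. All 6 genes shown on chromosomes 5 and 7 lie to the right of 0. Of the 4 to the left, Gabra3 and Gabrd passed, and Gabrr2, the farthest left at -1.69, did not (adjusted p = 0.0640).

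Of 21 genes for receptor clustering and trafficking at inhibitory synapses, all tested, 4 were higher in dorsal and 5 in ventral libraries. These counts stand beside 19.0% and 14.6% of all tested genes, and the median log2 fold change of the list was 0.0540. Shisa7, an auxiliary subunit of GABA-A receptors, measured 87.7 ± 18.7 CPM dorsally and 47.1 ± 5.21 CPM ventrally (log2 fold change 0.90, SE 0.152, adjusted p = 0.000857). The others higher in dorsal libraries were Slitrk3, an adhesion molecule of inhibitory synapses (log2 fold change 0.56, adjusted p = 0.0113), Zdhhc3, a palmitoyltransferase for gamma subunits (log2 fold change 0.48, adjusted p = 0.0188), and Plcl1 (log2 fold change 0.40, adjusted p = 0.0268). Gphn, which encodes the scaffold gephyrin, was higher in ventral libraries, at 41.4 ± 3.13 CPM dorsally and 60.2 ± 13.8 CPM ventrally (log2 fold change -0.55, SE 0.157, adjusted p = 0.0168). Gabarap, a receptor trafficking protein, was also higher there (log2 fold change -0.57, adjusted p = 0.00296), as were Gabarapl2 (log2 fold change -0.44, adjusted p = 0.0287), Hap1 (log2 fold change -0.96, adjusted p = 0.000228) and Fam196a (log2 fold change -1.11, adjusted p = 0.000991), the inhibitory synapse gene now named Insyn2a. The Gabarapl2 call was lost with the replicate number as a block (adjusted p = 0.0597) and without dorsal replicates 2, 3 or 5 or ventral replicates 2, 3 or 4 (adjusted p up to 0.0775), and the Plcl1 call without dorsal replicates 4 or 5 or ventral replicates 1, 4 or 5 (adjusted p up to 0.0721).

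Of 17 genes for GABA-B auxiliary subunits and effectors, all tested, 5 were higher in dorsal and 2 in ventral libraries. The shares over all tested genes were 19.0% and 14.6%, and the median log2 fold change of the list was -0.11. The auxiliary subunit genes divided, with Kctd16 at 9.70 ± 0.878 CPM dorsally and 5.34 ± 1.49 CPM ventrally (log2 fold change 0.88, SE 0.225, adjusted p = 0.00953) and Kctd8 at 23.4 ± 3.16 CPM dorsally and 45.3 ± 6.17 CPM ventrally (log2 fold change -0.94, SE 0.145, adjusted p = 0.000454). A gene on the other strand shares 10.35% of the exonic length of Kctd16. The potassium channel genes that GABA-B receptors open divided too. Kcnj3 measured 294 ± 46.5 CPM dorsally and 156 ± 25.2 CPM ventrally (log2 fold change 0.92, SE 0.135, adjusted p = 0.000325), although a gene on the other strand shares 31.1% of its exonic length. Kcnj6 measured 31.7 ± 2.48 CPM dorsally and 14.8 ± 5.06 CPM ventrally (log2 fold change 1.08, SE 0.196, adjusted p = 0.00128), whereas Kcnj9 measured 21.4 ± 2.70 CPM dorsally and 41.5 ± 9.15 CPM ventrally (log2 fold change -0.94, SE 0.167, adjusted p = 0.00112). Adcy1, an adenylyl cyclase, had the largest dorsal fold change of the list, at 741 ± 71.4 CPM dorsally and 329 ± 44.7 CPM ventrally (log2 fold change 1.17, SE 0.110, adjusted p = 1.63e-05), and Ajap1, which binds Gabbr1, measured 34.3 ± 4.56 CPM dorsally and 22.02 ± 4.23 CPM ventrally (log2 fold change 0.62, SE 0.158, adjusted p = 0.00931). Of the 4 inhibitory G protein alpha subunit genes, 0 passed in edgeR, by its likelihood-ratio test or in DESeq2, and 1, Gnao1, had an unadjusted p under 0.05.

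**Figure D5:**
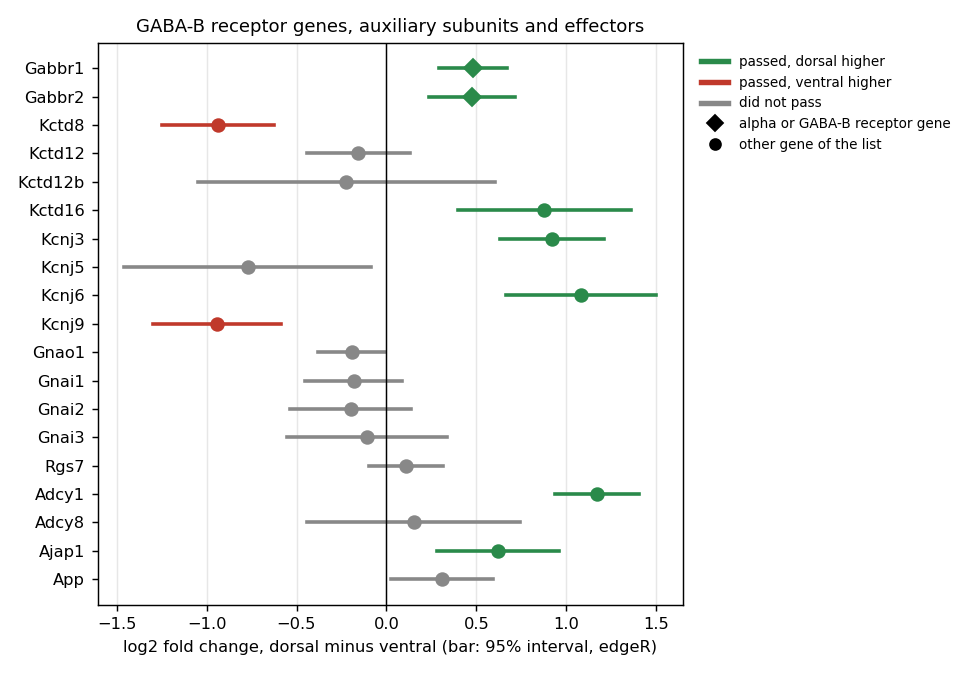
Log2 fold change, dorsal minus ventral, with 95% interval (x axis) of Gabbr1 and Gabbr2 (diamonds) and 17 auxiliary subunit and effector genes (circles). Of the 17, 9 lie to the left of 0, where Kctd8 and Kcnj9 passed and Kcnj5 and Gnao1 did not although their intervals end below 0, and 8 lie to the right, where Kctd16, Kcnj3, Kcnj6, Adcy1 and Ajap1 passed.

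GABA-A receptor current depends on the chloride gradient, and of 7 chloride transport genes 2 were higher in dorsal and 1 in ventral libraries. For this list and the next, the shares over all tested genes were 19.0% in the dorsal and 14.6% in the ventral direction. Slc12a2, the chloride importer NKCC1, measured 114 ± 17.5 CPM dorsally and 75.1 ± 23.2 CPM ventrally (log2 fold change 0.60, SE 0.184, adjusted p = 0.0221), and its call was lost without dorsal replicate 2 (adjusted p up to 0.0516). Wnk3, a kinase acting on these transporters, measured 210.4 ± 18.8 CPM dorsally and 166 ± 16.6 CPM ventrally (log2 fold change 0.34, SE 0.101, adjusted p = 0.0189). The Wnk3 call was lost without ventral replicates 4 or 5 (adjusted p up to 0.0536) and with the replicate block and the GC and length correction together (adjusted p = 0.0680). Slc12a7, the exporter KCC4, was low and higher in ventral libraries, at 0.423 ± 0.295 CPM dorsally and 2.10 ± 0.489 CPM ventrally (log2 fold change -2.30, SE 0.478, adjusted p = 0.00176). Of 6 tested genes for GABA synthesis, transport and breakdown, 1 was higher in dorsal libraries, the mainly astrocytic GABA transporter Slc6a11 (log2 fold change 1.19, adjusted p = 0.000343), and 1 in ventral libraries, the GABA synthesizing enzyme Gad1 (log2 fold change -0.46, adjusted p = 0.0103). With the share of reads outside genes as a covariate, 4 of the 15 dorsal calls (Gabrb1, Gabrg3, Kcnj3 and Adcy1) and 1 of the 10 ventral calls (Kctd8) over all these lists still passed.

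Markers of some other cell types differed between the groups. Over all tested genes 19.0% were higher in dorsal and 14.6% in ventral libraries. Of 13 interneuron markers 7 were higher in ventral and 1, Dlx6, in dorsal libraries, and their summed level was 3699 to 4916 CPM dorsally and 4461 to 5769.5 CPM ventrally. Of 7 astrocyte markers 4 were higher in dorsal and 1 in ventral libraries, with a summed level of 1866 to 2113 CPM dorsally and 676 to 1247 CPM ventrally, without overlap. Of 6 oligodendrocyte markers 3 were higher in dorsal and 0 in ventral libraries, with a summed level of 2194 to 2569 CPM dorsally and 791 to 1451 CPM ventrally, again without overlap. None of the markers in these 3 lists was at 0 in all libraries. Of 7 mossy cell markers, 6 were tested, and Gria2 and Gria3 were higher in dorsal and Satb1 in ventral libraries. Of 5 granule cell markers 1 was higher in each direction, and of 6 CA pyramidal cell markers 1 was higher in dorsal libraries. Of 5 subiculum markers 2 were higher in dorsal libraries, while none of 5 microglial and 2 oligodendrocyte precursor markers passed. The part of these cells in the receptor differences was not tested.

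Over the 10 libraries, the genes whose log2(CPM + 1) was most like each receptor gene were found by Pearson correlation over all tested genes. As these libraries fall into 2 groups, any gene with a similar group difference scores high, and r is given as a description. For Gabra2 they were Plcb4 (r = 0.991), Igfbpl1 (r = 0.978) and Gm13341 (r = 0.978). For Gabra5 they were Lpp (r = 0.991), Mark3 (r = 0.987) and Ryr2 (r = 0.986), and for Gabra4 3110067C02Rik (r = 0.986), Gm47591 (r = 0.981) and Zfp977 (r = 0.978). For Gabra3 they were Tpd52 (r = 0.994), Gm10501 (r = 0.985) and Mto1 (r = 0.982). For Gabbr1 they were Dbndd2 (r = 0.989), Sec61a2 (r = 0.982) and Prkca (r = 0.982), and for Gabbr2 2700078F05Rik (r = 0.988), Cacnb2 (r = 0.984) and Cldn1 (r = 0.982). Between 218 and 445 genes exceeded r = 0.9 with each receptor gene.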

How the data were processed

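The members and gene lists were chosen with earlier results of these data known. RNA of 5 dorsal and 5 ventral TRAP libraries (500 pg each) was amplified with the Ovation kit and sequenced as 50 bp paired ends. Per the labels and the study's methods, the authors aligned reads to GRCm38 with STAR 2.5.2b and made counts per Ensembl gene with HTSeq 0.7.2, deposited without normalization. The annotation release and strand setting are not given in the sources used here, so overlapping genes are uncertain. HTSeq summary lines were left out. Those for pairs outside genes and for ambiguous pairs held 18.7 to 39.8% of the pairs on genes and on these lines. Reads were amplified and carry no molecular identifiers, so floors and intervals cover counting error only. P-values measure the spread between these pools, not between mice.

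The filter kept genes exceeding 1 CPM in 2 or more libraries, as in the study. Counts were scaled by TMM and tested with edgeR 4.0.16 in R 4.3.3 (quasi-likelihood, Benjamini-Hochberg over 16806 genes). Levels are CPM on TMM-scaled sizes, with SD over 5 libraries. Enrichment asks for an absolute log2 ratio of mean CPM + 1 above 0.58. Coordinates, lengths and GC came from GENCODE M21, which matched 54809 of 54838 identifiers. Shares and ratios were tested with exact permutation tests (scipy 1.17.1). Named genes are the 7 members, listed pathway genes that pass, the 3 genes most like each member, and markers; some listed genes are not reported here, and Gnao1, Kcnj5 and Gabrr2 were named after their values were seen. Alternatives were other scalings, filters, DESeq2 1.42.0, the likelihood-ratio test, the replicate block, a GC and length correction (mgcv 1.9.3) and gene subsets. Others were the covariate, another fold threshold for enrichment, other lengths, a centred log-ratio of the alpha genes and each library left out. The edgeR 3 dispersions, and the orders of levels and shares on other lengths, were added after the data were seen. Pairs of libraries within a group had a chi-square per degree of freedom of 4.70 to 49.5, and none was a duplicate. The tests were tested on simulated data.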

Additional observations from a re-analysis of the deposited data

Results flagged for a closer look

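The Gabra4 level in ventral replicate 3, 93.9 CPM, stood far from the other 4 ventral libraries, which lay between 73.4 and 76.9 CPM. Its gap to the nearest of them was 0.827 of the group's range, above the critical value of 0.71 for 5 samples. It was the only 1 of 22 combinations of a measure and a group to be marked, and chance marks about 1 in 20. Without this library the Gabra4 log2 fold change was 0.56 (edgeR adjusted p = 0.00821).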

How the results depend on the processing

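No fold change of the 6 receptor genes changed direction under the 25 other settings, and Gabbr1 passed in each. Of these settings, 1 changes only the threshold for enrichment and so repeats the reported fold changes. Gabra2 did not pass with the GC and length correction (0.18, adjusted p = 0.149; 0.18 with the replicate block too, 0.144). With the share outside genes as covariate the values were 0.61 for Gabra2, -0.56 for Gabra3, 0.11 for Gabra4, 0.66 for Gabra5 and 0.30 for Gabbr2, none passing, and passing genes fell from 3191 and 2454 to 968 in dorsal and 394 in ventral direction, enriched genes from 2632 and 1656 to 833 and 339, and listed pathway genes from 15 and 10 to 4 and 1. Genes enriched in dorsal numbered 1724 with CPM above 1 in 5 libraries and 1582 among protein-coding genes, where fewer genes were tested. Leaving out each library gave 0.61 to 0.73 for Gabra2, -0.996 to -0.78 for Gabra3, 0.42 to 0.57 for Gabra4, 0.71 to 0.79 for Gabra5, 0.45 to 0.52 for Gabbr1 and 0.41 to 0.53 for Gabbr2, all passing; ventral calls ranged from 1606 (without dorsal replicate 5) to 2506. The cause was not tested.

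The share tests rest near the smallest p the design allows, and leaving out 1 library often ended a call. For Gabra3 the exact permutation p was 0.0159 in all 10 of these tests, the smallest possible with 1 library left out. Its lost calls therefore came from that limit and the joint adjustment. Differences without 1 library were 5.29 to 7.27 percentage points for Gabra2 (lost in 9 of 10), -13.4 to -11.6 for Gabra3 (lost in 7 of 10), 5.05 to 7.09 for Gabra5 (lost in 8 of 10) and -0.355 to 1.04 for Gabra4; the highest adjusted p of the 3 that were called was 0.0794. The Gabra2 difference was 5.997 on coding length (adjusted p = 0.0595) and 5.73 on the longest transcript (0.0529). Gabra5 was at 2.62 on coding length and 2.79 on plain counts. Gabra4 turned sign at -0.231 on coding length and -0.0826 on plain counts. The GABA-B log2 ratio ranged from -0.100 to 0.0612 without 1 library. In the replicate block (exact sign-flip test, smallest p 0.0625) differences of 6.05, -12.5 and 6.13 points for Gabra2, Gabra3 and Gabra5 could not pass. These 3 are not independent, as a rise in 1 share lowers the others. A centred log-ratio takes the log2 level per kb minus its mean over Gabra2 to Gabra5 in the library. By it, Gabra2, Gabra3 and Gabra5 differed by 0.403, -1.13 and 0.503, values that are tied too. Each passed (exact permutation p = 0.00794, adjusted 0.0132), and Gabra4 at 0.224 did not (adjusted p = 0.169).

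Same-numbered dorsal and ventral libraries correlated at -0.0204 to 0.0426 in their deviations, and 1 of 5 correlated best with its own number, which gives no sign over all genes that a number marks a shared pool, although the groups share their mice and the sources used here do not say how pools were numbered. The replicate block ended the calls of Gabarapl2 and Gabrd and, with the GC and length correction, that of Wnk3, and changed no receptor gene's fold change call by itself (-0.87 for Gabra3, SE 0.114 against 0.157 without it; 0.48 for Gabra4, adjusted p = 0.0101).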

Other observations

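The dorsal pools differed among themselves along a common line. Dorsal replicates 1 and 2 had the highest Gabra3 and Gabbr1 levels of their group and the lowest Gabra4 and Gabbr2 levels, while dorsal replicates 3 and 5 had the highest Gabra4 and Gabbr2 levels and the lowest shares of Gabra3, at 6.64 and 7.14%. Ventral replicates 1 and 2 likewise had the highest Gabra3 (98.7 and 98.5 CPM) and lowest Gabra4 levels (76.1 and 73.4 CPM) of their group. The GABA-B genes did not follow there, as ventral replicate 2 was highest for both Gabbr1 (367 CPM) and Gabbr2 (174 CPM). Whether this likeness by number reflects shared pools was not tested. Over the 10 libraries Gabra3 and Gabra4 had a Pearson r of -0.956, and -0.904 after the group means were removed, whereas Gabbr1 and Gabbr2 had 0.767 and -0.104. These are descriptions over libraries that share preparation but differ in depth, chosen after the values were seen.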
